A study of Homo sapiens with 8 samples.

Results

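EGFR, the receptor ERBB2 that pairs with it, the ligands AREG, EREG, HBEGF and TGFA, and the feedback inhibitors DUSP6, SPRY4 and ERRFI1 were followed through RNA sequencing libraries of BEAS-2B cells. These 9 genes were chosen by name, out of 58735 genes in the tables. All 9 passed the filter on low counts (2 or more of the 8 libraries with a rounded count of 10 or higher), which 18242 genes passed. BEAS-2B cells are an established line of human bronchial epithelium, immortalised with viral genes. They were grown here on collagen-coated inserts in a bronchial growth medium that is supplemented with EGF, and exposed at an air-liquid interface. Cultures received humidified clean air (CA) or air with 1 ppm formaldehyde (FA) for 2 h, and every culture then had 6 h of recovery in fresh medium before RNA was taken. The rRNA-depleted RNA of each treatment was sequenced as it was (CA_IN and FA_IN, the inputs) and after pull-down with an anti-8-oxoG antibody, 8-oxoG being an oxidized form of guanine (CA_IP and FA_IP). Each of the 4 groups held 2 biological replicates, numbered 1 and 3.

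EGFR is a receptor tyrosine kinase that pairs with itself or with ERBB2 when a ligand binds, and then drives the RAS, RAF, MEK and ERK cascade. Its ligands are made as membrane-anchored precursors that sheddases such as ADAM17 release, and in airway epithelium the receptor is known for its part in wound repair and mucus production. ERK in turn raises the transcription of its own brakes: DUSP6, a phosphatase that removes the activating phosphates of ERK, SPRY4, a Sprouty protein that dampens signalling between receptor and RAF, and ERRFI1, which binds the kinase domain of EGFR and blocks it.

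The inputs held between 26.2 and 45.1 M expected counts and the immunoprecipitated libraries between 16.9 and 23.7 M. Replicates of a group correlated at Pearson's r between 0.969 and 0.982 over genes (TMM-normalized log2 counts), and libraries of different groups between 0.963 and 0.983. Markers of the bronchial epithelial line were present, with KRT7 at 432 to 497 TPM (RSEM's estimate per transcript length, brought to the same total in every library), EPCAM at 10.9 to 13.4 TPM and CDH1 at 8.82 to 11.2 TPM in the inputs. The leukocyte markers PTPRC and CD3E, and FOXJ1, SCGB1A1 and MUC5AC of ciliated and secretory airway cells, lay between 0 and 0.08 TPM in all 8 libraries. The endothelial VWF reached 0.01, CDH5 0.14 and PECAM1 0.30 TPM at most. CD14 reached 0.94 to 1.55 TPM in the inputs. Of the mesenchymal markers VIM reached 173 to 229 TPM in the inputs, while COL1A1 lay between 0.92 and 1.30 TPM, COL1A2 between 0.05 and 0.09 TPM and DCN between 0 and 0.02 TPM. The summed epithelial markers spanned 859 to 920 TPM in CA_IN and 872 to 1032 TPM in FA_IN, so these ranges overlapped.

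3 stretches of sequence are shown because the results below turn on DUSP6 and SPRY4. DUSP6 lies on the minus strand at chr12:89347235-89352501 and SPRY4 on the minus strand at chr5:142310427-142326455 (GRCh38, GENCODE 44). The promoter windows, from 250 bases before to 50 bases after the RefSeq start (GRCh38.p14), are chr12:89352452-89352751 for DUSP6 and chr5:142324198-142324497 for SPRY4, which is inside the GENCODE gene. Capitals in them mark CGGAAG, the core bound by ETS factors, which ERK can activate, or its reverse complement CTTCCG. The search covered both strands. The third sequence is the first exon of the DUSP6 transcript ENST00000547140 in capitals, at chr12:89351497-89351582, followed in lower case by 40 bases of the next exon.

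DUSP6 promoter: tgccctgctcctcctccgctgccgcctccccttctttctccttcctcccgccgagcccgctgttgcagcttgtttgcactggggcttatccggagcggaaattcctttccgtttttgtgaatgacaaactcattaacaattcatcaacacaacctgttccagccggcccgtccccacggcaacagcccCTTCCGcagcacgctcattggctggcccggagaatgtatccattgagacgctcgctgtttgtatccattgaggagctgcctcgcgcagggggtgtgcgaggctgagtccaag

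SPRY4 promoter: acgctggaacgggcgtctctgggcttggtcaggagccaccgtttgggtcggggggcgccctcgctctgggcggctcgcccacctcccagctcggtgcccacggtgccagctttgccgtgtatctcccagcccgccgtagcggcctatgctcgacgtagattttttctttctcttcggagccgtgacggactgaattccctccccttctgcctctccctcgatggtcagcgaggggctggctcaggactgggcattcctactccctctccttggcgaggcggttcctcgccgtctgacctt

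DUSP6 ENST00000547140: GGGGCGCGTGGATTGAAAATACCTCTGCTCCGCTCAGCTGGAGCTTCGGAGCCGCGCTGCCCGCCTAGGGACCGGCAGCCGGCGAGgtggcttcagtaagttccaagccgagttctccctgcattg

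The DUSP6 window held 1 match and the SPRY4 window 0. Of 35116 RefSeq promoter windows, 19.5% held at least 1. Among the other members, the windows of ERBB2 held 3 matches and those of HBEGF held 1. AREG held 1 match to the cyclic AMP response element TGACGTCA, which 1.85% of all windows held. An EGFR window held 2 matches to the AP-1 site TGAGTCA, which 4.95% of all windows held. The GC box GGGCGG was searched too and was held by 45.0% of all windows. All 9 members had a window in the table.

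AREG, which encodes amphiregulin, had the highest level per transcript length of the 9 genes in clean air input, at 20.1 and 35.8 TPM (replicates 1 and 3). DUSP6 followed at 18.9 and 18.7 TPM. ERRFI1 stood at 14.2 and 16.6 TPM and HBEGF at 13.3 and 16.5 TPM, and these neighbours overlapped. EREG (epiregulin) stood at 8.65 and 10.3 TPM, EGFR itself at 6.15 and 7.31 TPM and ERBB2 at 5.13 and 4.82 TPM. TGFA (4.44 and 3.92 TPM) and SPRY4 (4.54 and 3.65 TPM) were lowest and overlapped each other. Every other pair of neighbours in this order was separated by its replicates. Of the rest of the receptor and ligand lists, ERBB3 reached 0.82 to 1.23 TPM in the inputs. ERBB4 (0.01 to 0.04 TPM) and EGF (0.01 to 0.06 TPM) were near 0, NRG3 was listed at 0, and these 3 were not tested. NRG1 reached 1.76 to 2.80 TPM, and EPGN, BTC, NRG2 and NRG4 stayed at or below 1.07 TPM.

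The mean TPM of the 9 genes was between 1.53 and 2.21 times higher in the immunoprecipitated libraries than in their inputs. Fractions were therefore compared on TMM-normalized CPM, counts divided by each library's scaled total, a scale set so that most genes do not differ between libraries.

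**Figure D1:**
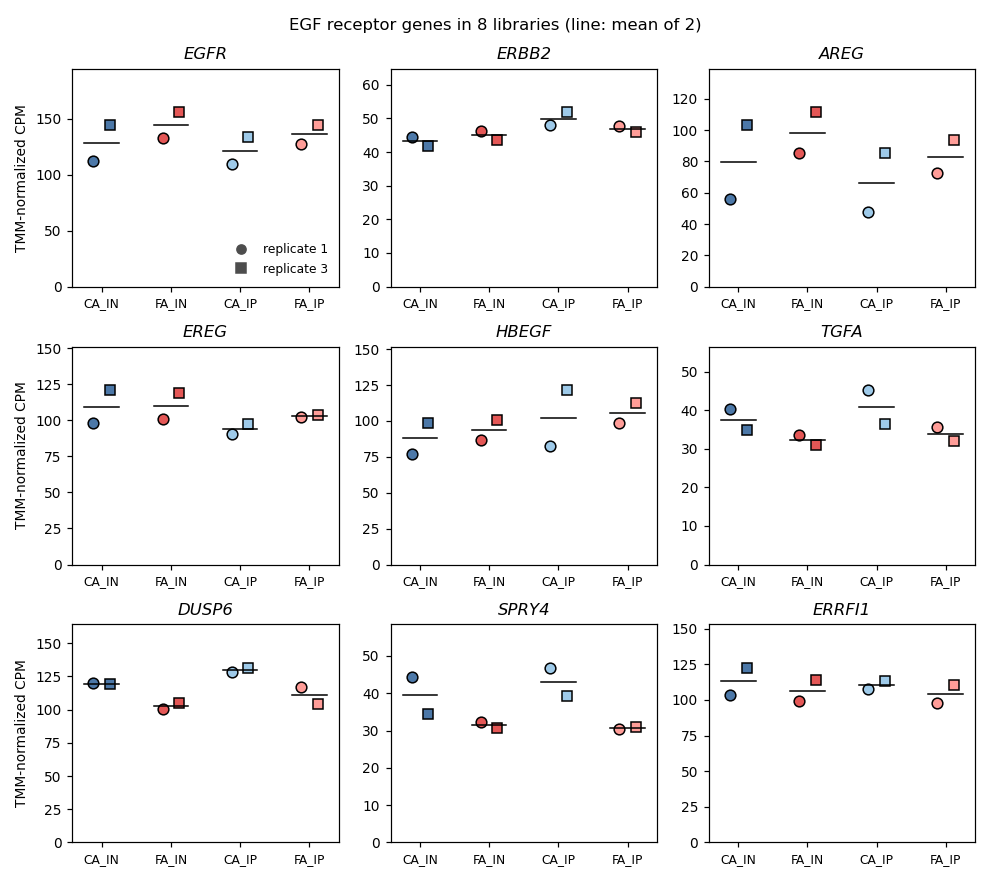
TMM-normalized CPM (y axis, linear from 0) of the 9 genes in the 8 libraries. Circles are replicate 1, squares replicate 3, and the line is the mean of 2. TGFA, DUSP6 and SPRY4 lie lower in both FA_IN libraries than in both CA_IN libraries, and AREG replicate 3 lies above replicate 1 in each of the 4 groups.

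The effect of formaldehyde on total RNA was asked by comparing FA_IN with CA_IN. None of the 9 genes passed an adjusted p of 0.05 (edgeR quasi-likelihood test, Benjamini-Hochberg over all genes tested), and 1 of 9 had an unadjusted p under 0.05. DESeq2 on the same libraries also called 0, with 0 at an unadjusted p under 0.05. In the same comparison 1 of 18242 genes was called (0.00548%) and 611 had an unadjusted p under 0.05 (3.35%). The input libraries of 3 genes did not overlap, TGFA, DUSP6 and SPRY4, all with lower values in FA_IN. Over all genes, 15.8% had lower and 18.1% had higher values in both FA_IN libraries than in both CA_IN libraries. In bulk RNA, fewer cells of a type and less RNA per cell cannot be told apart.

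DUSP6 measured 120 and 119 CPM in CA_IN and 101 and 105 CPM in FA_IN. Both formaldehyde libraries were below both clean air libraries. The fold was 0.863 (log2 fold change -0.21, SE 0.09, 95% interval of the fold 0.754 to 0.987), with an unadjusted p of 0.0354 and an adjusted p of 0.945 in edgeR. The difference between libraries of the same number was -0.25 on the log2 scale for replicate 1 and -0.17 for replicate 3. DUSP6 had the smallest spread between replicates of the 9 genes, a biological coefficient of variation of 0.0770 in edgeR, where the median gene had 0.138.

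SPRY4 measured 44.4 and 34.4 CPM in CA_IN and 32.2 and 30.7 CPM in FA_IN. The formaldehyde libraries were again below both clean air libraries, but the gap to the lower of these was small beside the distance between the clean air replicates. The fold was 0.797 (log2 fold change -0.33, SE 0.14), with an unadjusted p of 0.0502 and an adjusted p of 0.945 in edgeR. By replicate number the log2 difference was -0.46 and -0.17. It was -0.13 without CA_IN replicate 1, -0.51 without CA_IN replicate 3 and -0.19 with effective length as an offset. ERRFI1, the third feedback inhibitor, measured 104 and 122 CPM in CA_IN and 99.2 and 114 CPM in FA_IN. Its groups overlapped and its fold was 0.943 (95% interval 0.788 to 1.13).

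Among the ligands, TGFA (transforming growth factor alpha) measured 40.3 and 34.9 CPM in CA_IN and 33.7 and 31.0 CPM in FA_IN. Its groups did not overlap, and its log2 differences by replicate number were -0.26 and -0.17. The fold was 0.861 (95% interval 0.693 to 1.07, edgeR adjusted p = 0.945), and the log2 value moved from -0.22 to -0.11 without CA_IN replicate 1. AREG measured 56.2 and 103 CPM in CA_IN and 85.4 and 112 CPM in FA_IN. The FA_IN values lay around the higher clean air library, and the lower clean air library stood apart from the other 3. The AREG fold of 1.24 had an interval of 0.741 to 2.06, and the log2 difference was 0.60 for replicate 1 and 0.11 for replicate 3. Without CA_IN replicate 1 it was -0.07. AREG had the largest spread of the 9 genes, a biological coefficient of variation of 0.231.

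EREG measured 98.3 and 121 CPM in CA_IN and 101 and 119 CPM in FA_IN, with a fold of 1.01 (interval 0.831 to 1.22). HBEGF, the heparin-binding ligand, measured 77.3 and 98.4 CPM in CA_IN and 86.5 and 100 CPM in FA_IN, with a fold of 1.07 (interval 0.794 to 1.43). For both ligands the replicates within a treatment differed by more than the treatments did.

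With the 4 groups alone in the model, the receptors gave no difference beyond their spread. With the replicate number as a block, EGFR stood at 0.18 on the log2 scale (unadjusted p = 0.0232, adjusted p = 0.255 in edgeR). EGFR measured 112 and 144 CPM in CA_IN and 133 and 156 CPM in FA_IN, and the groups overlapped. Its fold was 1.13 (interval 0.889 to 1.43), and its log2 difference was 0.25 for replicate 1, 0.11 for replicate 3 and -0.00038 without CA_IN replicate 1. ERBB2 measured 44.4 and 41.9 CPM in CA_IN and 46.4 and 43.6 CPM in FA_IN, with a fold of 1.04 (interval 0.893 to 1.22). The EGFR interval includes a change of up to 1.43-fold, which 2 replicates a group could not separate from no change.

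**Figure D2:**
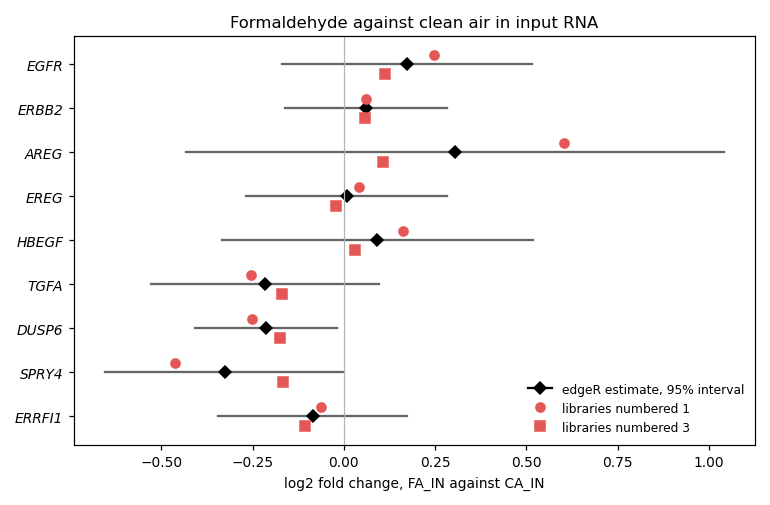
Log2 fold change of FA_IN against CA_IN (x axis) for the 9 genes. Diamonds and bars are the edgeR estimate and its 95% interval, and red points are the differences between libraries of the same number. The interval of DUSP6 lies below 0 and that of SPRY4 just reaches it, before any adjustment over the 18242 genes, and AREG has the widest interval.

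The other genes of the pathway were taken from 7 lists by role, together 56 genes, of which 53 were tested. 0 of the 53 were called in this comparison by edgeR, 5 had an unadjusted p under 0.05, and DESeq2 called 0. Their median log2 fold change was -0.03, beside 0.02 over all genes. In the list of sheddases and genes for their maturation, ADAM10 had a log2 fold change of 0.01, ADAM17 0.00 and RHBDF2 0.18. In the list of adaptors and ubiquitin ligases, SHC1 stood at -0.02, GRB2 at -0.07 and CBL at -0.23. These genes and the cascade members HRAS (0.17) and MAP2K2 (0.19) had edgeR adjusted p of 0.945 or more. Of the genes that ERK signalling induces, IER3 stood at -0.12, CCND1 at 0.00 and FOSL1 at -0.16, and the 8 genes of that list had a median of -0.02.

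The list of 12 feedback inhibitors was chosen with earlier results of these data known, so its counts are a description. It had values below 0 for 10 genes, among them DUSP6, SPRY4 and ERRFI1, and a median log2 fold change of -0.29. Over all genes tested 46.5% had a value below 0. None of the 12 was called by edgeR or DESeq2 with the 4 groups alone in the model, and 4 had an unadjusted p under 0.05 in edgeR. These were DUSP6, DUSP5, DUSP7 and SPRED1, of which DUSP7 and SPRED1 were named after their values were seen. DUSP5, a phosphatase of nuclear ERK, stood at -0.35 (SE 0.10, unadjusted p = 0.00598). DUSP7, a cytoplasmic ERK phosphatase, stood at -0.65 (SE 0.15, unadjusted p = 0.00212). SPRED1, a Sprouty-related inhibitor of RAS activation, stood at -0.38 (SE 0.15, unadjusted p = 0.0306), and each of the 3 had an adjusted p of 0.945. Without a filter on low counts DUSP7 was called, and with the replicate number as a block all 3 were. The study ran clean air in parallel with formaldehyde and lists several exposure dates. It does not state which date a replicate number stands for. DUSP7 measured 4.02 and 3.28 TPM in CA_IN and 2.31 and 2.09 TPM in FA_IN, and DUSP5 measured 8.60 and 7.93 TPM against 6.09 and 6.15 TPM. Neither pair of groups overlapped in TPM. On TMM-normalized CPM, 15.8% of all genes were lower in both FA_IN libraries than in both CA_IN libraries. Values above 0 were found for LRIG1 (0.10) and SPRED3 (0.26). With single libraries left out the median of the list lay between -0.20 and -0.37.

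The same pools can be compared in the antibody fraction, FA_IP with CA_IP, a comparison chosen after seeing the data. These libraries came from the same RNA as the inputs, so they add no new cultures. DUSP6 measured 128 and 131 CPM in CA_IP and 117 and 104 CPM in FA_IP, and SPRY4 measured 46.7 and 39.2 CPM against 30.4 and 31.0 CPM. For both genes the FA_IP libraries were below both CA_IP libraries. The same held for TGFA and ERBB2, while both EREG values were higher in FA_IP. How many of all genes did so was not counted for this comparison, so these separations are a description only. In the input comparison 15.8% of all genes were lower and 18.1% higher in both formaldehyde libraries. The log2 fold change was -0.23 for DUSP6 (unadjusted p = 0.0271) and -0.49 for SPRY4 (unadjusted p = 0.00931), each with an edgeR adjusted p of 0.907. TGFA stood at -0.27 (unadjusted p = 0.0855). Thus 2 of 9 members had an unadjusted p under 0.05, where 4.77% of all genes did, and 0 of 18242 genes (0%) passed after adjustment. Of the 12 feedback inhibitors 10 had values below 0, with a median of -0.29, beside 51% of all genes and a median of -0.0054.

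**Figure D3:**
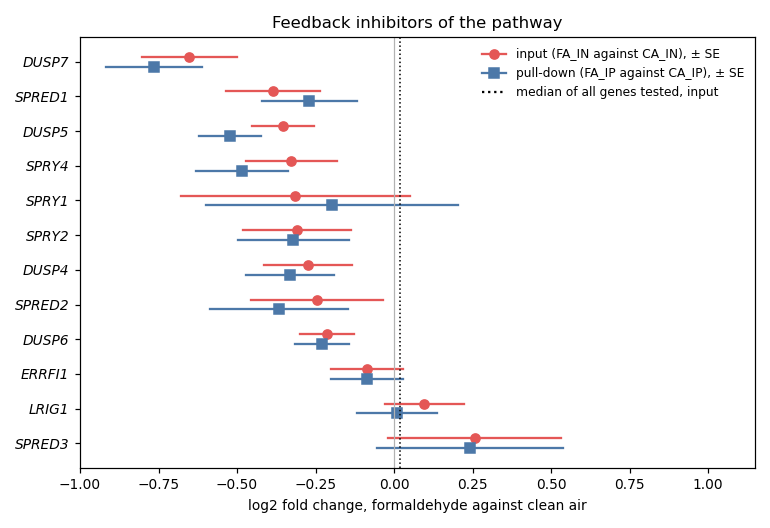
Log2 fold change of formaldehyde against clean air (x axis) for the 12 feedback inhibitors, in input (red circles) and in immunoprecipitated RNA (blue squares). Bars are 1 SE and the dotted line is the median of all genes tested in input, 0.02. For 10 of 12 genes both points lie below 0, and none passed the adjusted test in the model of the 4 groups.

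Whether the transcripts were taken up by the antibody was asked by comparing each immunoprecipitated group with its own input. Relative to other genes, none of the 9 members was called in either treatment by edgeR or by DESeq2, and none had an unadjusted p under 0.05 with either tool. Over all genes edgeR called 349 in clean air (1.91%) and 274 after formaldehyde (1.5%). The members' log2 fold changes lay between -0.27 (AREG) and 0.21 (HBEGF) in clean air, and between -0.24 (AREG) and 0.18 (HBEGF) after formaldehyde. With library size in place of TMM the median of all genes moved to 0.16 in clean air and 0.17 after formaldehyde, so values close to 0 hold only relative to the median gene.

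In clean air, ERBB2 measured 48.0 and 51.9 CPM in CA_IP against 44.4 and 41.9 CPM in CA_IN, a log2 fold change of 0.21 (SE 0.10, edgeR adjusted p = 0.436). With effective length as an offset the ERBB2 value turned to -0.033. DUSP6 measured 128 and 131 CPM against 120 and 119 CPM, a log2 fold change of 0.12 (SE 0.09). EREG measured 90.4 and 97.4 CPM against 98.3 and 121 CPM, a log2 fold change of -0.22 (SE 0.12, edgeR adjusted p = 0.529). In these 3 genes the fractions did not overlap, ERBB2 and DUSP6 with higher and EREG with lower values in CA_IP. Over all genes 22.9% had higher and 18.1% lower values in both CA_IP libraries. After formaldehyde the fractions of all 9 genes overlapped, where 18.9% of all genes had higher and 18.5% lower values in both FA_IP libraries.

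Input and immunoprecipitated RNA with the same number came from 1 RNA pool, and AREG differed between pools more than between fractions. It measured 47.6 and 85.3 CPM in CA_IP against 56.2 and 103 CPM in CA_IN, and 72.5 and 93.7 CPM in FA_IP against 85.4 and 112 CPM in FA_IN. Within each of the 4 pools AREG was lower in the immunoprecipitated RNA, with log2 differences of -0.24 and -0.28 in clean air and of -0.24 and -0.25 after formaldehyde. With the pool as a block in edgeR, AREG was called lower in both treatments, at -0.26 in clean air (SE 0.07, adjusted p = 0.00953) and -0.24 after formaldehyde (SE 0.07, adjusted p = 0.0218). EREG was called lower in clean air at -0.22 (SE 0.07, adjusted p = 0.0414) but not after formaldehyde, where it stood at -0.10 (adjusted p = 0.505). The difference between the treatments was not significant for EREG (interaction 0.12, edgeR adjusted p = 1.00 with the block). With this block 5.85% of all genes were called lower in clean air and 4.6% after formaldehyde, so that 2 and 1 of 9 members stand beside those shares. Of the 53 pathway genes the block gave 11 higher and 4 lower in clean air, and 2 higher and 3 lower after formaldehyde. Over all genes 11.6% were called higher in clean air and 5.45% after formaldehyde. HRAS, the small GTPase upstream of RAF, and MAP2K2, the kinase MEK2, were higher in both, HRAS at 0.45 and 0.38 and MAP2K2 at 0.44 and 0.30. Without the block these 2 genes had edgeR adjusted p of 0.0649 and 0.101 in clean air and were not called. In clean air DESeq2 called HRAS, edgeR without a filter called MAP2K2, and edgeR with library size or with the replicate number as a block called both. Over all genes these settings called 505 (DESeq2), 686 (no filter, of 35784), 1157 (library size) and 1941 (replicate number), of 18242 where not stated. Of the 53 pathway genes, library size called 3 and the replicate number as a block called 4.

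**Figure D4:**
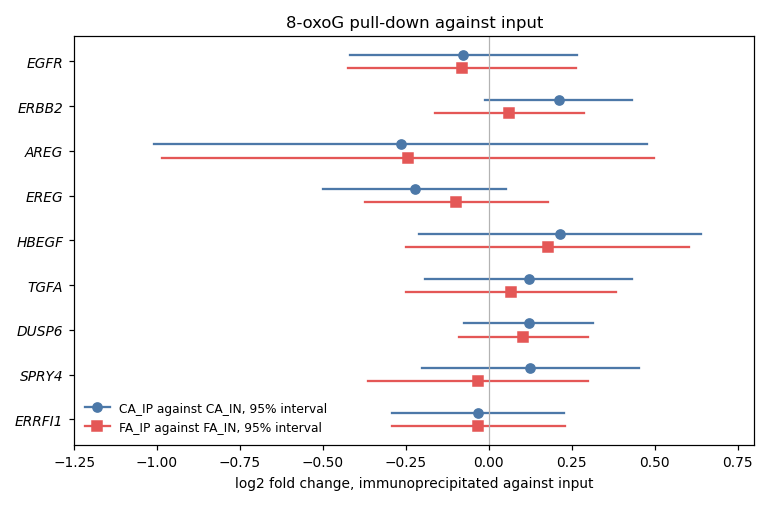
Log2 fold change of immunoprecipitated against input RNA (x axis) for the 9 genes, in clean air (blue circles) and after formaldehyde (red squares), with 95% intervals from edgeR without the pool as a block. Every interval includes 0, and the estimates of the 2 treatments differ by 0.16 or less for each gene.

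The 2 treatments were compared directly by the interaction of treatment and immunoprecipitation. The members' interaction lay between -0.16 (SPRY4) and 0.13 (EREG) on the log2 scale, and 0 of 9 were called. Over all genes edgeR called 0 of 18242 (0%), with 195 at an unadjusted p under 0.05, and DESeq2 called 3. The 95% interval of the interaction ran from -0.29 to 0.26 for DUSP6, from -0.46 to 0.17 for ERBB2 and from -1.03 to 1.07 for AREG, all on the log2 scale. The sign of the interaction changed under at least 1 alternative for all 9 genes.

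The guanine share of the most abundant transcript was computed because the antibody recognises oxidized guanine. The sequences were those of GENCODE 44, and among the members only that of SPRY4 had the length under which its reads were counted. DUSP6 differed most, with 3627 bases in GENCODE 44 and 4400 in the counts. EREG had 18.1% guanine (percentile 2.89 among the tested genes) and ERBB2 had 29.6%, above the upper quartile of 28.0%. The other 7 members had between 22.1% (ERRFI1) and 25.8% (HBEGF), around the median of 24.7% over the 17934 tested genes with a sequence. The clean air pull-down value of ERBB2 was 0.21 for the gene but -0.077 for the transcript whose guanine was counted, so no sign can be set beside its guanine share.

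DUSP6 also has a transcript that behaved unlike the gene as a whole. Of its 5 transcripts, ENST00000279488 held 62.4% of the gene's expected counts, ENST00000308385 26.3% and ENST00000547291 10.0%. The fourth, ENST00000547140, held 0.883%. It is 604 bases long, and it belongs to the transcripts that the study listed as enriched in oxidation on these same libraries. Its values are therefore a description. In the clean air inputs it had 17.7 and 31.0 expected counts, and in the formaldehyde inputs 0 and 0. The immunoprecipitated libraries held 55.2 and 54.0 counts in clean air and 26.6 and 45.5 after formaldehyde. It was at 0 in both formaldehyde inputs and was counted in the other 6 libraries. The formaldehyde inputs held 26.2 and 36.6 M expected counts and the FA_IP libraries 16.9 and 23.7 M. The cause of the values of 0 was not tested. With FA_IN set to a floor of 3 counts per library, on the CPM scale, CA_IN was 5.95-fold higher than FA_IN. This fold was 3.82 to 8.08 when 1 of the 4 libraries was left out, lowest without CA_IN replicate 3. FA_IP was 15.7-fold higher than the same floor (13.5 to 18.7 with a library left out), and CA_IP was 3.85-fold higher than CA_IN. The floor covers counting error but not the division of shared reads among isoforms, so folds against it are not lower bounds.

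Only the first exon of ENST00000547140, the 86 bases in capitals above, is its own. The exon lies in the intron of ENST00000279488 at chr12:89351026-89351639, and the remaining 518 bases are shared with that transcript. Of the 530 windows of 75 bases, the read length, 84 (15.8%) occurred in none of the other 4 DUSP6 transcripts. RSEM divides reads over the shared bases among the isoforms by estimation, and the counts were made without a strand setting, so small values of this transcript rest on few reads of its own. The 3 larger DUSP6 transcripts had log2 fold changes in input of -0.20, -0.21 and -0.21, close to the gene's -0.21.

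**Figure D5:**
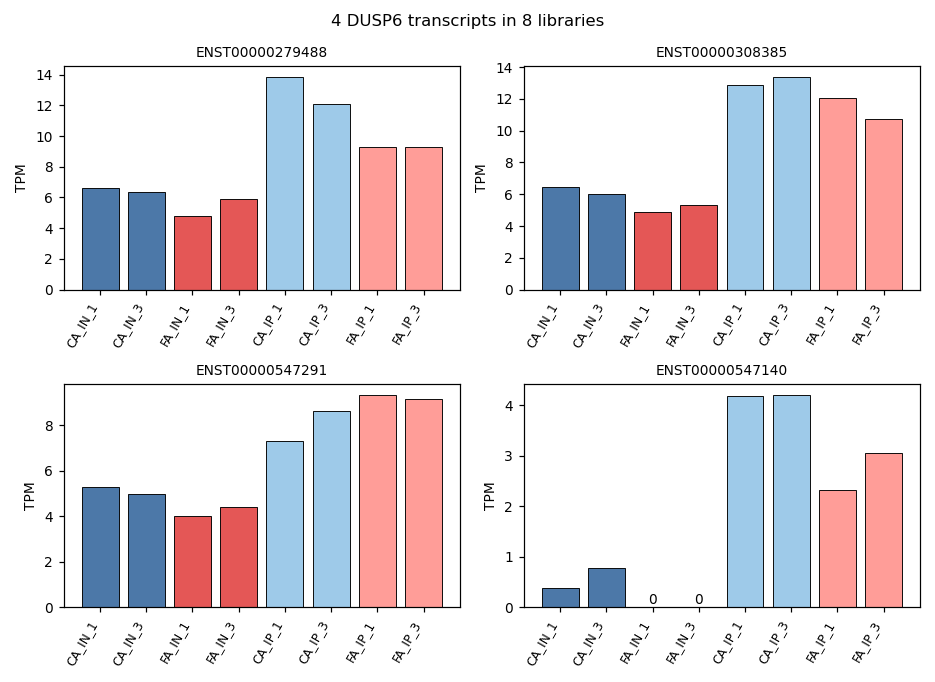
TPM (y axis, linear from 0, a different range in each panel) of the 4 named DUSP6 transcripts in the 8 libraries, 1 bar per library. ENST00000547140 is at 0 in both FA_IN libraries and between 2.32 and 4.20 TPM in the immunoprecipitated ones, while the 3 larger transcripts are present in all 8.

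Of the 15 member transcripts that were named, 0 were called by edgeR in any of the 4 comparisons, and 2, 1, 1 and 2 had an unadjusted p under 0.05 (input, clean air pull-down, formaldehyde pull-down, interaction). Over the 67873 transcripts tested 2.8%, 7.06%, 5.95% and 2.92% had such a p, and the calls were 0 (0%), 164 (0.242%), 98 (0.144%) and 0 (0%). SPRY4 was spread over 3 transcripts. ENST00000344120 held 58.8% of its counts with an input log2 fold change of -0.25, ENST00000643792 held 25.9% with -0.63 (SE 0.19, unadjusted p = 0.0161, adjusted p = 1.00), and ENST00000434127 held 12.9% with -0.20. For ERBB2, ENST00000269571 held 59.0% of the counts. Its second named transcript, ENST00000541774, had 349 expected counts in FA_IN replicate 1 and 0 in FA_IN replicate 3, so the division among ERBB2 isoforms varied between replicates more than the gene did. EGFR, AREG, EREG, HBEGF, TGFA and ERRFI1 each had a single transcript with at least 10% of the gene's counts.

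Across the 8 libraries the pattern of EGFR was most like those of FBXL7 (Pearson's r = 0.996 on log2 CPM), ELOVL6 (0.986) and RSU1 (0.986). The pattern of DUSP6 was most like those of MECOM (0.958), BCL6 (0.956) and NUDCP1 (0.955). Among the members EGFR followed AREG (r = 0.983) and ran opposite to TGFA (-0.93), and TGFA followed SPRY4 (0.910). These are descriptions over 8 libraries in which input and immunoprecipitated RNA share pools. Replicate 3 was above replicate 1 in all 4 groups for 5 of the 9 genes, EGFR (by 0.18 to 0.37 on the log2 scale), AREG (by 0.37 to 0.88), EREG, HBEGF and ERRFI1, and below it in all 4 groups for TGFA. The replicate number therefore moved with this likeness, and its part in it was not tested.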

How the data were processed

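The members and the pathway lists were chosen with earlier results of these data known. Per the labels and the study's methods, libraries were made with a small RNA kit after rRNA depletion and read as 75-base pairs. The submitters' processing notes name cutadapt, STAR 2.6.0a, RSEM 1.2.25 and GRCh38, and the study names Ensembl release 94. The authors deposited RSEM expected counts, TPM and effective lengths in bases per transcript, without normalization between libraries. They also deposited 3 tables of their own DESeq2 comparisons (fold changes and p-values), which were not used. Sample labels name different antibody clones, so the clone is not certain.

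Expected counts were summed by gene, rounded and tested with edgeR 4.0.16 in R 4.3.3 (limma 3.58.1), in 1 model of the 4 groups with TMM, a prior count of 0.125 and Benjamini-Hochberg adjustment, limit 0.05. Symbols were matched for 58207 of 58735 genes. Genes were named as all 9 members, the 3 genes of highest input TPM in each list, transcripts with at least 10% of a member's counts and the DUSP6 transcript in the study's list. 1 gene of the cascade list is not reported here. GENCODE 44 gave coordinates; 53 of the 67 member transcripts had the same length there as in the files. In simulated counts, 84.5%, 83.5%, 86.5% and 44.5% of 200 changes of 1 on the log2 scale were recovered (input, CA pull-down, FA pull-down, interaction). The changed genes were drawn from genes of higher mean count, and simulated libraries shared no RNA pools. Changes as small as those of the members were not simulated. Floors of 3 counts allow for counting error alone, because reads were not tagged by molecule. Pairing of fractions comes from the split RNA pools: deviations of same-numbered libraries from their group means correlated at 0.251 in clean air and 0.143 after formaldehyde. Alternatives were DESeq2 1.42.0, 4-library fits, other scalings, filters, lengths, blocks and each library left out. Tables were read with Python 3.11.15.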

Additional observations from a re-analysis of the deposited data

How the results depend on the processing

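The count of called members stayed at 0 of 9 in every comparison and alternative that was run except with the RNA pool as a replicate block, which gave 2 in CA_IP against CA_IN and 1 in FA_IP against FA_IN. It changed no other call of a member. With the replicate number as a block, 0 members were called, 258 genes in all differed in input, and DUSP5 (-0.36), DUSP7 (-0.65) and SPRED1 (-0.37) were called lower (edgeR adjusted p = 0.0432, 0.00794 and 0.0416). Under this block 5 of 9 members had an unadjusted p under 0.05 in input by edgeR, where 2655 of 18242 genes did. Deviations of same-numbered input libraries correlated at 0.204. The study ran clean air in parallel with formaldehyde on several dates, but nothing states that these numbers mark a shared day or batch. Without a filter DUSP7 was called. DUSP6, SPRY4 and TGFA stayed below 0 in input under every alternative. With single libraries left out they ran from -0.27 to -0.19, from -0.51 to -0.13 and from -0.32 to -0.11, SPRY4 and TGFA nearest to 0 without CA_IN replicate 1. Over all genes the input count was 100 without a filter and 3 with DESeq2. The pull-down counts were 1157 and 561 with library size, 686 and 578 without a filter, and 1941 and 953 with the replicate number as a block. With single libraries left out they ranged from 194 to 318 in clean air and from 121 to 282 after formaldehyde. They were 194 without CA_IP replicate 1, 217 without CA_IN replicate 1, and 121, 146 and 161 without FA_IN replicate 1, FA_IP replicate 1 and FA_IP replicate 3. For the interaction the count was 3 with DESeq2, 52 without a filter, 25 with the pool as a block and 0 to 5 with single libraries left out. 2 libraries a group and 16.9 M counts in the smallest library limit these tests. The cause of the changes below was not tested.

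Values near 0 changed sign. In input ERBB2 became -0.14 with effective length and -0.030 for its most abundant transcript, and EREG became -0.031 with library size, -0.012 without a filter, -0.012 with a mean count of at least 50, -0.034 with effective length and -7.0e-05 with 4 libraries. In the clean air pull-down, library size gave 0.070 for EGFR and 0.11 for ERRFI1, and ERBB2 became -0.033 with effective length and -0.077 for its most abundant transcript. In the formaldehyde pull-down, library size gave 0.086 for EGFR, 0.071 for EREG, 0.14 for SPRY4 and 0.14 for ERRFI1, effective length gave 0.0022 for EGFR, and the most abundant DUSP6 transcript gave -0.064. With single libraries left out, input values ran from -0.00038 to 0.36 for EGFR, -0.071 to 0.80 for AREG, -0.14 to 0.16 for EREG, -0.073 to 0.27 for HBEGF and -0.21 to 0.033 for ERRFI1. In the clean air pull-down they ran from -0.25 to 0.11 for EGFR, -0.75 to 0.23 for AREG, -0.091 to 0.47 for HBEGF, -0.046 to 0.27 for TGFA, -0.061 to 0.32 for SPRY4 and -0.15 to 0.081 for ERRFI1. In the formaldehyde pull-down they ran from -0.18 to 0.058 for EGFR, -0.20 to 0.045 for EREG, -0.0089 to 0.16 for TGFA, -0.051 to 0.011 for SPRY4 and -0.12 to 0.088 for ERRFI1.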
